A study of Mus musculus with 12 samples.

Results

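The 10 genes described here encode uroplakins and other surface or secreted proteins known from mesothelium: Upk1a, Upk1b, Upk2, Upk3a, Upk3b, Msln, Muc16, Lrrn4, Podxl and Dmkn. They were picked by gene symbol from the 55228 genes of a table of mRNA counts, and all 10 symbols were found in it. The series set the embryonic epicardium (EE) of E10.5 mouse embryos against the proepicardium (PE) of E9.5 embryos, with 3 libraries of pooled tissue per stage. EE cells were isolated by fluorescence-activated sorting and PE was dissected by hand, so that the effect of stage and that of the way the cells were collected cannot be told apart. Embryos of both stages came from the line labelled Wt1Cre-EGFP, which the methods of the study call Wt1GFP/+, and received no treatment. Each pool held at least 5 embryos per the labels, and the gate of the sort is not given in the sources used here.

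The proepicardium is a cluster of mesothelial cells on the septum transversum that attaches to the heart and spreads over it as the epicardium, the outer mesothelial layer of the heart. Uroplakins are best known from the bladder, where they build the plaques of the urothelial surface. Upk1a and Upk1b are tetraspanins, proteins with 4 membrane spans. Each pairs with a single-span partner, Upk2 for Upk1a and Upk3a or Upk3b for Upk1b. Mesothelium is an epithelium with a glycoprotein-coated free surface, and Upk3b, Msln and Lrrn4 are commonly used to mark it.

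Promoter sequence of 4 of the genes is printed to show what lies upstream of genes that were higher in EE (Upk3b, Lrrn4 and Dmkn) and of the one that was higher in PE (Upk3a). Each sequence is the 250 bases before the annotated start, 5′ to 3′ on the strand of the gene, from RefSeq on GRCm38.p6. The windows are chr5:136038246-136038495 (+) for Upk3b, chr2:132880863-132881112 (-) for Lrrn4, chr7:30763506-30763755 (+) for Dmkn and chr15:85016891-85017140 (+) for Upk3a. Capitals mark matches, on either strand, to short motifs of transcription factor families.
Upk3b: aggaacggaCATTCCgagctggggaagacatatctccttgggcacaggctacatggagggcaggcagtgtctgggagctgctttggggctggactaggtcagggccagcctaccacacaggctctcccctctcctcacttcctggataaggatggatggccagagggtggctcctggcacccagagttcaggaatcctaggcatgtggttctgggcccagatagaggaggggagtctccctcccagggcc
Lrrn4: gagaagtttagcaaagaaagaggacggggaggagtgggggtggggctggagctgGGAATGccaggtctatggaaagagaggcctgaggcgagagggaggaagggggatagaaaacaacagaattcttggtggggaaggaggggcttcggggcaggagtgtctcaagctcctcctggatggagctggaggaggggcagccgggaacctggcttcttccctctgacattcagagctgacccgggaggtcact
Dmkn: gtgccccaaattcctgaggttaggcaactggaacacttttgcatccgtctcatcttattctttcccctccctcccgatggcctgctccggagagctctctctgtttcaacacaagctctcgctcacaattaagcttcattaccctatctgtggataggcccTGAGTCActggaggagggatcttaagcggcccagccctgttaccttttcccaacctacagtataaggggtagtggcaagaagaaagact
Upk3a: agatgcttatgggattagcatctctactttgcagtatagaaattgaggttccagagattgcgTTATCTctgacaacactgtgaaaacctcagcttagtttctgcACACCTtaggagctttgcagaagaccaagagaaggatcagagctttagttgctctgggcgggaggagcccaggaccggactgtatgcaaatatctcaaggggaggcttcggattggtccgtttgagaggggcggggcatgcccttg

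Motifs of 6 families (TEAD, E-box, GATA, T-box, AP-1 and WT1) were searched on both strands, and no base of the windows shown lay in matches to more than 1 of them. The table held windows for 6 of the 10 genes, Upk1a, Upk3a, Upk3b, Muc16, Lrrn4 and Dmkn, with 3 alternative starts for Dmkn. The TEAD motif, spelled CATTCC, stood at -241 to -236 from the start of Upk3b, and 12.6% of all 32851 windows of this length held it. It also stood in reverse at -196 to -191 of Lrrn4. Upk3a carried the GATA motif, searched as AGATAA, in reverse at -188 to -183 (9.99% of windows). The T-box motif was searched as AGGTGT and lay in reverse at -146 to -141 of Upk3a and forward at -46 to -41 of Muc16 (11.8% of windows). The AP-1 motif, TGAGTCA in letters, was found in all 3 windows of Dmkn, at -89 to -83 of the one shown, and in 4.46% of all windows. The first 2 of these windows overlap and share that match, so the matches stand at 2 places. The WT1 motif was searched as GCGTGGG (4.30% of windows) and was in none of the 8 windows. The same held for the E-box, searched as CAGCTG (13.0% of windows). Upk1a held no match, the downstream start of Dmkn also held the T-box motif, and a match is only a description of the sequence.

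Of the 9 genes that could be tested, 6 were higher in EE, namely Upk1b, Upk3b, Msln, Lrrn4, Podxl and Dmkn, and 1, Upk3a, was higher in PE. Upk1a and Muc16 were tested and not called, and Upk2 had counts in too few libraries to be tested. The test was edgeR's quasi-likelihood test across the 23853 genes that had a count in 3 or more of the 6 libraries. A call took an adjusted p (Benjamini-Hochberg) below 0.05 together with a change of more than 1.5-fold in either direction, and fold changes are EE over PE. Of all genes tested, 9.38% were called, 4.52% as higher in EE and 4.86% as higher in PE. Levels are given as CPM, which are counts scaled to a common library total after adjustment by TMM factors. By these levels the 3 EE libraries lay above the 3 PE libraries for 6 genes and below them for 1, while the stages overlapped for Upk1a, Upk2 and Muc16. Among all genes tested, 31.9% had stages that did not overlap. The 10 genes together took 0.413% to 0.579% of the counts of the EE libraries and 0.0382% to 0.0432% of those of the PE libraries. In EE, Upk1b (0.253% to 0.427%) and Upk3b (0.121% to 0.278%) made most of this share. In pooled tissue, fewer cells of a type and less RNA per cell cannot be told apart.

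**Figure D1:**
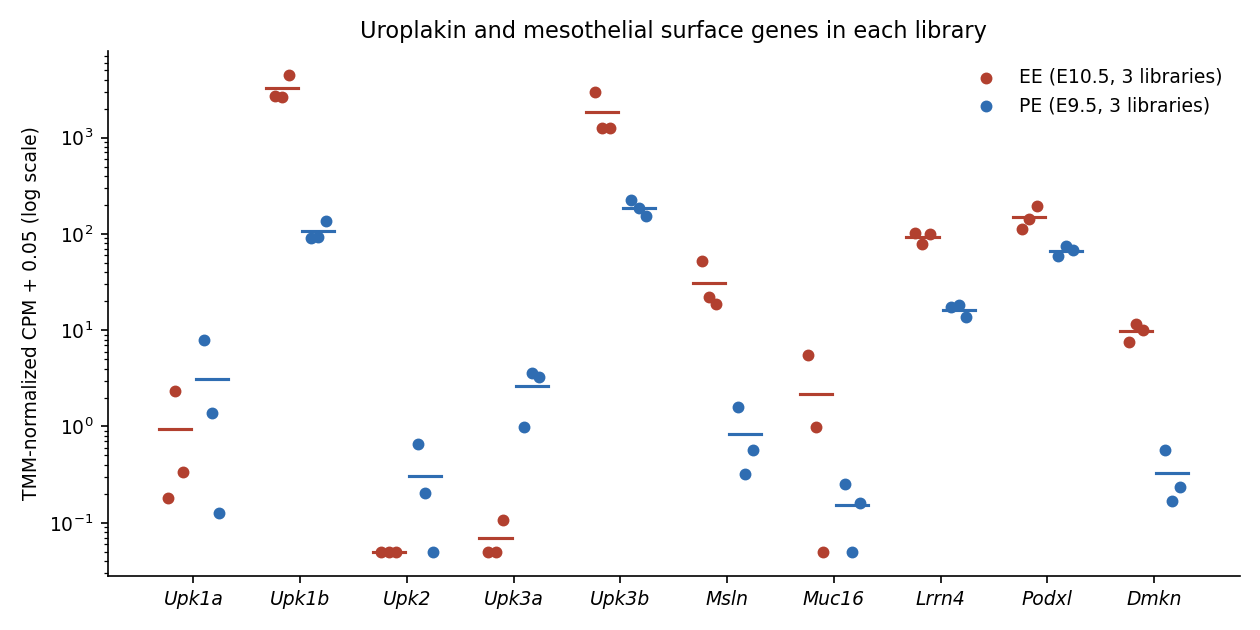
TMM-normalized CPM of the 10 genes in each library (points; vertical log axis, with 0.05 added so that values of 0 can be drawn) with the mean of each stage (lines), EE in red on the left and PE in blue on the right of each gene. Upk1b and Upk3b lie between 1263 and 4502 CPM in all 3 EE libraries, Upk3a lies lower in EE than in PE, and the stages overlap for Upk1a, Upk2 and Muc16.

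The libraries held 18464362 to 24481780 counts over 18763 to 23335 detected genes in EE and 23054165 to 25814015 counts over 24520 to 24842 genes in PE. A count of 0 allows up to 3 counts, or 0.130 to 0.171 CPM in EE and 0.112 to 0.121 CPM in PE, for counting error only. The third EE library was the smallest, and its score on principal component 2 (16.4% of the variance) was -43.5, where the other EE libraries had 40.0 and 14.8. Of the epicardial markers, Wt1, Tcf21, Tbx18 and Aldh1a2 were detected in every library and called higher in EE, and Tbx20 was not called (44.1 to 55.7 CPM in EE, 25.8 to 52.4 CPM in PE). Among 7 transcription factors of epicardial cells, 3 were higher in EE (Wt1, Tcf21 and Tbx18), 1 was higher in PE and Tbx20, Gata4 and Gata6 were not called. The one higher in PE was Tbx5, a T-box factor of heart and limb, at 34.8 ± 8.95 CPM in EE and 87.4 ± 17.8 CPM in PE (SD, n = 3 each, log2 fold change -1.33, edgeR adjusted p = 0.0120). Summed over each list, markers of other cell types had counts in both stages, although single markers did not. All 12 hepatoblast markers were higher in PE (summed level 143 to 562 CPM in EE, 3956 to 7131 CPM in PE), as were 8 of 9 gut endoderm markers (10.8 to 23.5 CPM in EE, 401 to 621 CPM in PE) and 8 of 11 endothelial markers (230 to 378 CPM in EE, 514 to 603 CPM in PE). Of 12 cardiomyocyte markers, 7 were higher in EE (9801 to 15738 CPM in EE, 4749 to 7460 CPM in PE), a split that became 4 higher in EE and 4 higher in PE under the scaling to epicardial factors given further on. Of 8 blood cell markers, Pf4 was called, higher in EE (58.3 ± 12.7 CPM in EE, 11.5 ± 11.8 CPM in PE, SD, n = 3 each), and lost the call under RLE factors and without 5 of the 6 libraries, each left out alone. The summed level of the 8 was 599 to 8453 CPM in EE and 2853 to 7347 CPM in PE. In EE, Cldn5 of the endothelial markers had no count in any library, and Hnf4a of the hepatoblast markers had 1, 0 and 0 counts. Alb had no count in the second EE library and Epcam none in the first. The part of these cell types in the levels of the 10 genes was not tested.

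Among the tetraspanin uroplakins, Upk1b was the more abundant. It lies on chromosome 16 (GRCm38, 38773184 to 38800328, minus strand). Upk1b was at 2686, 2660 and 4502 CPM in the EE libraries, against 90.7, 93.5 and 135 CPM in the PE libraries. Every EE library was far above every PE library, and the third library was the highest of each stage. The means were 3283 ± 1056 CPM in EE and 107 ± 25.0 CPM in PE (SD, n = 3 each), a fold of 30.8 between them and a log2 fold change of 4.95 ± 0.30 (SE, edgeR adjusted p = 4.75e-05). Per kilobase of exon, Upk1b ranked 16, 17 and 8 among 53569 genes in the EE libraries and 1525, 1465 and 1021 in the PE libraries. Its reads alone made 0.253% to 0.427% of the counts of an EE library, where PE libraries had 0.00950% to 0.0140%.

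Upk1a, on chromosome 7 (30603092 to 30612847, minus strand), gave no call. It was at 0.130, 2.26 and 0.285 CPM in EE, against 7.81, 1.33 and 0.0750 CPM in PE, from 3, 51 and 5 counts in EE and 194, 34 and 2 counts in PE. The second EE library and the first PE library were the highest of their stages, and the stages overlapped. The log2 fold change was -1.76 ± 1.32 (SE, edgeR adjusted p = 0.465) and turned to 0.36 (adjusted p = 0.926) without the first PE library, so that its sign rests on that library. Within the summed level per kilobase of Upk1a and Upk1b, Upk1a made 0.00712%, 0.125% and 0.00932% in EE and 11.2%, 2.04% and 0.0813% in PE.

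The single-span uroplakins moved in opposite directions. Upk3b, the partner of Upk1b that is known from mesothelium, lies on chromosome 5 (136038496 to 136046487, plus strand). Upk3b reached 2948, 1263 and 1270 CPM in EE, against 223, 184 and 154 CPM in PE. The lowest EE library was above the highest PE library, and the first library was the highest of each stage. With means of 1827 ± 971 CPM in EE and 187 ± 34.2 CPM in PE (SD, n = 3 each), the log2 fold change of Upk3b was 3.29 ± 0.36 (SE, edgeR adjusted p = 0.00060). It ranked 38, 132 and 175 per kilobase in EE and 1091, 1275 and 1494 in PE.

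Upk3a, the partner of Upk1b in urothelial plaques, lies on chromosome 15 (85017141 to 85022547, plus strand). Upk3a had 0, 0 and 1 count in the EE libraries, against 23, 90 and 86 counts in the PE libraries, or 0, 0 and 0.0571 CPM in EE and 0.926, 3.51 and 3.22 CPM in PE. All EE libraries were below all PE libraries. The gene passed the filter on low counts through PE, the stage where it was high, so its call is a description. The log2 fold change was -6.89 ± 1.09 (SE, edgeR adjusted p = 0.00453), and its size depends on how the model treats the single EE count. Pooled over libraries, the level in PE was 163 times that in EE, with an exact 95% counting interval of 28.9 to 6465. That interval covers counting error in the summed counts only and leaves out the spread between libraries. Of the summed level per kilobase of Upk3a and Upk3b, Upk3a made 0%, 0% and 0.0145% in EE and 1.33%, 5.80% and 6.32% in PE. The 12 hepatoblast and 8 gut endoderm markers named above were higher in PE too, which is a shared direction between stages only. Among the PE libraries, Upk3a was lowest in the first, and these markers did not all follow it. All hepatoblast markers but Apob and Hnf4a were highest there, for example Afp (2888, 1536 and 1871 CPM). Hnf4a was lowest there (23.6, 35.1 and 29.0 CPM). The 8 gut endoderm markers, Foxa2 aside, were lowest there like Upk3a, for example Cldn6 (263, 433 and 377 CPM). Foxa2 was highest there (6.08, 1.60 and 2.85 CPM). The part of these cells in the level of Upk3a was not tested.

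Upk2, the partner of Upk1a, lies on chromosome 9 (44452715 to 44454976, minus strand). Upk2 had no count in any EE library, against 15, 4 and 0 counts in the PE libraries (0.604, 0.156 and 0 CPM). The third PE library was also at 0. Pooled over libraries, the exact 95% counting interval of the ratio of PE to EE had a lower limit of 3.82 and no upper limit. It covers counting error in the summed counts only and leaves out the spread between libraries, so it gives no limit for the stages. When the filter was dropped, Upk2 had an edgeR p of 0.0132 and an adjusted p of 0.102, which was not a call.

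Upk1b and Upk3b, which form a pair, did not keep the same proportion in the 6 libraries. The ratio of Upk1b to Upk3b per kilobase was 1.54, 3.56 and 5.99 in EE, against 0.688, 0.857 and 1.48 in PE. The stages did not overlap, although the lowest EE ratio and the highest PE ratio were close. The mean log2 ratio was 1.74 higher in EE (exact two-sided permutation test, p = 0.1, the smallest that 3 against 3 libraries allow, and 0.15 after Benjamini-Hochberg adjustment over 6 such ratios). Within EE, the library with the most Upk3b, the first, did not have the most Upk1b.

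**Figure D2:**
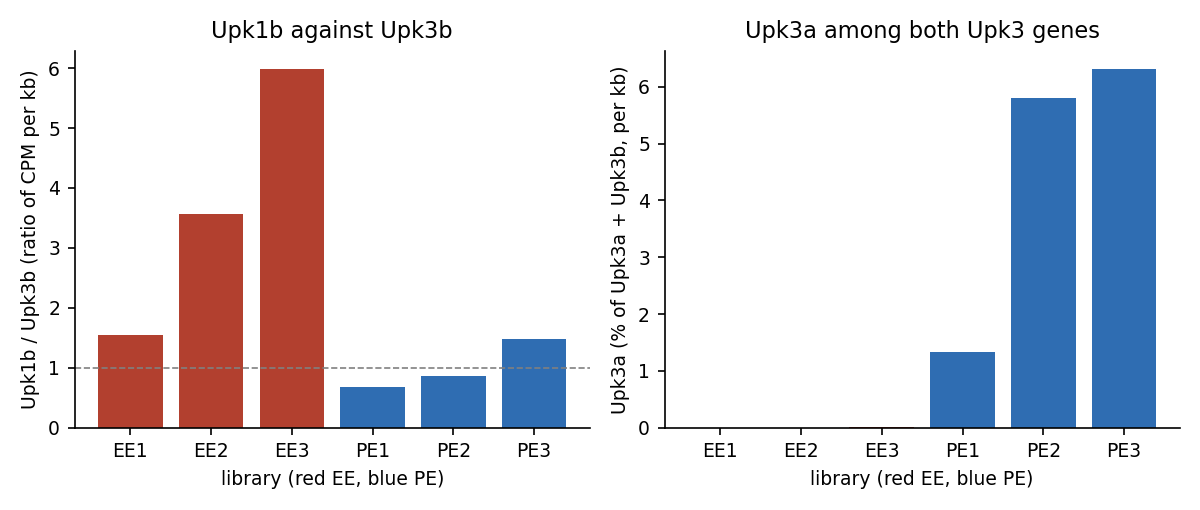
Left, the ratio of Upk1b to Upk3b in CPM per kilobase of exon in each library (bars; dashed line at 1). Right, Upk3a as percent of the summed level per kilobase of Upk3a and Upk3b. EE libraries are red and PE libraries blue. The ratio runs from 1.54 to 5.99 in EE and from 0.688 to 1.48 in PE, and the share of Upk3a reaches 0.0145% in EE and 6.32% in PE.

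No marker of urothelium other than the uroplakins was called higher in EE. Of 9 such genes, edgeR called 0 higher in EE (0 also at an unadjusted p under 0.05, with DESeq2 and with limma) and 3 higher in PE, and the median log2 fold change was -2.82, beside -0.06 for all genes tested. Krt20, a keratin of superficial urothelial and gut cells, was at 5.14 ± 1.73 CPM in EE and 44.5 ± 19.1 CPM in PE (SD, n = 3 each, log2 fold change -3.11, edgeR adjusted p = 0.00170). Elf3, an epithelial transcription factor, was at 1.28 ± 0.866 CPM in EE and 11.1 ± 2.09 CPM in PE (edgeR adjusted p = 0.00937). Psca, a small surface protein, had no count in EE and 16, 17 and 10 counts in PE (edgeR adjusted p = 0.0243). It passed the filter on low counts only through PE, the stage where it was high, so its call is a description. When any PE library was left out, Psca was no longer tested. Krt5, the keratin of basal urothelial cells, had no count in EE and at most 4 counts in a PE library. Trp63, the transcription factor of basal cells, was at 0.217, 0.133 and 0 CPM in EE and 2.09, 0.273 and 0.300 CPM in PE. Grhl3, the most abundant of the 9 in EE, was not called. It was at 29.3 ± 1.74 CPM in EE and 23.0 ± 12.0 CPM in PE (SD, n = 3 each, log2 fold change 0.35, edgeR adjusted p = 0.586). Grhl3, Krt5 and Trp63 were picked out after their values were seen.

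Mesothelin and its ligand were both rarer than Upk1b and Upk3b. Msln encodes mesothelin, a protein held in the membrane by a lipid anchor, and lies on chromosome 17 (25748613 to 25754378, minus strand). Msln was at 51.9, 21.9 and 18.8 CPM in EE, against 1.53, 0.273 and 0.525 CPM in PE. Every EE library was above every PE library, and in both stages the first library was the highest. The means were 30.9 ± 18.3 CPM in EE and 0.776 ± 0.665 CPM in PE (SD, n = 3 each), with a log2 fold change of 5.31 ± 0.66 (SE, edgeR adjusted p = 0.00131). Of its 50-base stretches of exon, 2.89% also occur in other annotated genes, the only such overlap among the 10 genes. The ratio of Msln to Upk3b per kilobase was 0.0203, 0.0200 and 0.0171 in EE, against 0.00792, 0.00171 and 0.00391 in PE. It differed little among the EE libraries, whereas Upk1b to Upk3b spread widely there.

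Muc16, the large membrane mucin that binds mesothelin, lies on chromosome 9 (18495455 to 18674530, minus strand). Muc16 had 127, 21 and 0 counts in EE, against 5, 0 and 3 counts in PE, or 5.51, 0.932 and 0 CPM in EE and 0.201, 0 and 0.112 CPM in PE. A library of each stage was at 0, so the stages overlapped. The log2 fold change was 4.30 ± 1.55 (SE) and was not called (edgeR adjusted p = 0.118), while it was called without the third EE library (4.89, adjusted p = 0.0172) or without the filter on low counts (4.30, adjusted p = 0.0180).

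Lrrn4, a membrane protein with leucine-rich repeats, lies on chromosome 2 (132868305 to 132880891, minus strand). Lrrn4 was at 102, 78.1 and 100 CPM in EE, against 17.2, 18.0 and 13.8 CPM in PE. The libraries of a stage lay close together and the stages were well apart. The means were 93.3 ± 13.2 CPM in EE and 16.3 ± 2.27 CPM in PE (SD, n = 3 each), with a log2 fold change of 2.51 ± 0.22 (SE, edgeR adjusted p = 0.000245).

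Podxl encodes podocalyxin, a sialomucin of the CD34 family known from podocytes, endothelium and apical membranes, and lies on chromosome 6 (31519488 to 31563981, minus strand). Podxl was at 113, 143 and 196 CPM in EE, against 58.7, 74.4 and 67.9 CPM in PE. The stages did not overlap, and the difference was the smallest of the 7 genes called. With means of 150 ± 41.9 CPM in EE and 67.0 ± 7.87 CPM in PE (SD, n = 3 each), the log2 fold change was 1.17 ± 0.23 (SE, edgeR adjusted p = 0.0136). Without the third PE library it was 1.18 with an adjusted p of 0.0525, which was no longer a call, and under scaling to Wt1, Tcf21 and Tbx18 its direction turned (below 0, as given further on). Cd34, its relative and an endothelial and progenitor marker, went the other way, with 21.2, 16.6 and 6.45 CPM in EE, against 66.0, 78.4 and 80.2 CPM in PE (log2 fold change -2.34, edgeR adjusted p = 0.00524).

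Dmkn encodes dermokine, a secreted protein best known from the epidermis, and lies on chromosome 7 (30763756 to 30781063, plus strand). Dmkn was at 7.46, 11.5 and 10.1 CPM in EE, against 0.524, 0.117 and 0.187 CPM in PE. EE libraries held 172, 259 and 177 counts of it, and PE libraries 13, 3 and 5 counts, so that the stages were far apart. The means were 9.68 ± 2.05 CPM in EE and 0.276 ± 0.217 CPM in PE (SD, n = 3 each), with a log2 fold change of 5.11 ± 0.57 (SE, edgeR adjusted p = 0.000691). None of the 10 genes shares exon sequence positions with another annotated gene, so that the unstranded library kit does not mix them with an antisense neighbour of the annotation.

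Set in order by mean level per kilobase, the EE libraries ran from Upk1b (1572 CPM per kilobase) through Upk3b (518), Podxl (27.4), Lrrn4 (25.1), Msln (10.1), Dmkn (4.42), Upk1a (0.628), Muc16 (0.0814) and Upk3a (0.0174) to Upk2 (0). Podxl and Lrrn4 differed by less than their spread in EE (SD 7.64 and 3.55 CPM per kilobase). In PE the order was Upk3b (53.0), Upk1b (51.0), Podxl (12.2), Lrrn4 (4.40), Upk3a (2.34), Upk1a (2.16), Msln (0.253), Upk2 (0.234), Dmkn (0.126) and Muc16 (0.00397). There, Upk3b and Upk1b differed by less than their spread (SD 9.69 and 12.0 CPM per kilobase), as did Upk3a and Upk1a, and likewise Msln, Upk2 and Dmkn. Upk3a, near the bottom of the order in EE, stood above Msln and Dmkn in PE.

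The levels were also set against those of 3 epicardial transcription factors, because Wt1, Tcf21 and Tbx18 were themselves higher in EE. Wt1 may have served in the gate of the sort, so its own level is a description. Wt1 was at 52.2, 69.6 and 110 CPM in EE, against 18.8, 16.9 and 19.8 CPM in PE. The geometric mean of the 3 factors was 183, 207 and 271 CPM in EE, against 52.3, 54.5 and 65.9 CPM in PE. Scaling libraries to it moved the median log2 fold change of all genes by -1.88, to -1.94, and the changes below are to be read against that shift. Upk1b was 14.7, 12.9 and 16.6 times the mean of the factors in EE, against 1.73, 1.72 and 2.05 times in PE (log2 fold change 3.01, edgeR adjusted p = 7.23e-05), with libraries of a stage close together. Upk3b was 16.1, 6.12 and 4.69 times that mean in EE, against 4.26, 3.38 and 2.34 times in PE (1.43, adjusted p = 0.0166). Msln (3.46, adjusted p = 0.00219) and Dmkn (3.17, adjusted p = 0.00183) also stayed higher in EE on this scale. Lrrn4 was not called (0.59, adjusted p = 0.123). Podxl turned to lower in EE (-0.79, adjusted p = 0.0175), and Upk1a was called as lower in EE (-3.76, adjusted p = 0.0374) beside Upk3a (-8.58, adjusted p = 0.000175).

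**Figure D3:**
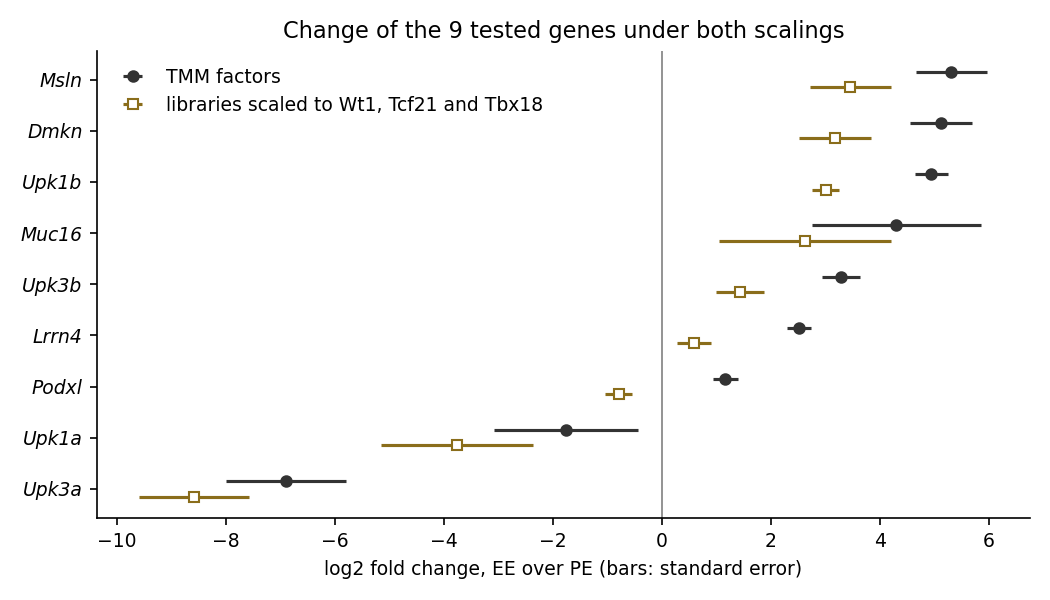
Log2 fold change (EE over PE, horizontal axis) of the 9 tested genes with its standard error (bars), with TMM factors (filled circles) and with libraries scaled to Wt1, Tcf21 and Tbx18 (open squares). All values move down under that scaling, where Podxl is at -0.79, against 1.17 with TMM factors, and Upk1b is at 3.01.

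Of 9 family relatives tested, edgeR called 0 higher in EE (1 at an unadjusted p under 0.05, and 1 each with DESeq2 and limma) and 2 higher in PE, Cd34 and Lrrn1, with a median log2 fold change of -0.57. Lrrn1, a paralog of Lrrn4, was at 0.0148 ± 0.0256 CPM in EE and 0.539 ± 0.293 CPM in PE (SD, n = 3 each, edgeR adjusted p = 0.0459) and lost its call when any library was left out. Lrrn1 passed the filter on low counts through PE, so its call is a description. Among 6 tested membrane mucins other than Muc16, Emcn, the sialomucin of endothelium, was the only call, at 16.6 ± 9.11 CPM in EE and 67.0 ± 10.7 CPM in PE (SD, n = 3 each, log2 fold change -2.01, edgeR adjusted p = 0.0108), and it lost the call without the second EE library.

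Of 27 tested tetraspanins other than the uroplakins, 8 were higher in EE, 2 were higher in PE and 17 were not called, with a median log2 fold change of 0.46. Tspan32 was at 119 ± 40.8 CPM in EE and 9.10 ± 2.73 CPM in PE (SD, n = 3 each, log2 fold change 3.71, edgeR adjusted p = 0.000280). The abundant Cd81 (log2 fold change 0.79) and Cd63 (1.39), both widely expressed membrane organizers, were higher in EE with TMM factors and turned to -1.09 and -0.55 under scaling to the epicardial factors. Cd81 lost its call without 5 of the 6 libraries, each left out alone. Under scaling to the epicardial factors, 1 of the 27 was higher in EE and 17 were higher in PE. With TMM factors, the count of tetraspanins higher in EE was 3 without the first EE or the third PE library and 4 without the second EE or the second PE library.

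Proteins under the apical membrane were split. Of 13 tested scaffold and linker genes, 2 were higher in EE, 3 were higher in PE and 8 were not called, with a median of -0.31. Ezr encodes ezrin, which links podocalyxin and other surface proteins to actin. It was at 1162 ± 270 CPM in EE and 371 ± 30.4 CPM in PE (SD, n = 3 each, log2 fold change 1.64, edgeR adjusted p = 0.00131), and turned to -0.23 under scaling to the epicardial factors, where 0 of the 13 were higher in EE and 10 were higher in PE. Crb3, the apical polarity protein of many epithelia, was at 0.520, 0.577 and 0.0571 CPM in EE, against 12.7, 18.5 and 17.2 CPM in PE (log2 fold change -5.32, edgeR adjusted p = 0.000564).

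Of 20 other genes known from mesothelium, edgeR called 10 higher in EE and 0 higher in PE (2 at an unadjusted p under 0.05, and 1 each with DESeq2 and limma), with a median log2 fold change of 1.07. Without the third PE library, 6 were higher in EE. Krt19, a simple-epithelial keratin, was at 542 ± 97.5 CPM in EE and 81.8 ± 5.54 CPM in PE (SD, n = 3 each, log2 fold change 2.73, edgeR adjusted p = 0.000110). Efemp1, an extracellular matrix protein, was at 343 ± 103 CPM in EE and 35.5 ± 13.4 CPM in PE (SD, n = 3 each, 3.27, adjusted p = 0.000426). Gpm6a, a membrane glycoprotein, was at 273 ± 119 CPM in EE and 15.6 ± 1.32 CPM in PE (SD, n = 3 each, 4.13, adjusted p = 0.000125). Krt8 was not called (303 ± 51.7 CPM in EE and 278 ± 60.6 CPM in PE, SD, n = 3 each). Bnc2 (3.03 CPM in EE and 8.91 CPM in PE, edgeR adjusted p = 0.0508) and Thbd (1.87 and 11.6 CPM, adjusted p = 0.0942) were not called either. Both were lower in every EE library than in any PE library. Krt8, Bnc2 and Thbd were named after their values were seen. Without the filter, with the replicate number as a block or without the third EE library, 2 of the 20 were called higher in PE. Scaled to the epicardial factors, 3 of these 20 genes were higher in EE and 8 were higher in PE, so the count depends on what the libraries are scaled to.

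**Figure D4:**
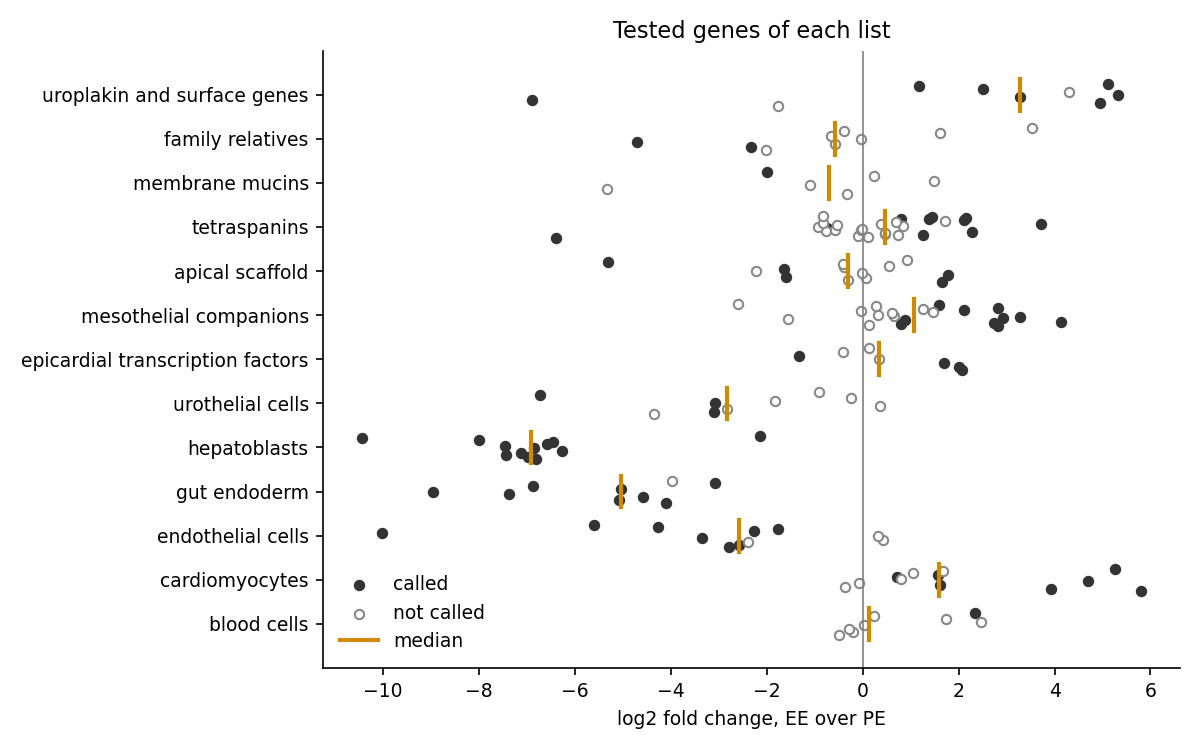
Log2 fold change (EE over PE, horizontal axis) of every tested gene of each list (rows), with genes called by edgeR filled, genes not called open and the median of the list as a bar. The 9 tested surface genes have a median of 3.29 and the 20 mesothelial genes one of 1.07, while hepatoblast and gut endoderm markers have medians of -6.92 and -5.05.

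The 5 surface genes with at least 10 CPM on average were all higher in EE, and their profiles over the 6 libraries differed. Likeness was measured as the root mean square distance between profiles of log2(CPM + 1), each centred on its own mean, among 8534 genes, and describes these 6 libraries only. Profiles were not scaled to a common spread, so the distance also grows with the difference in size of the change between stages. The closest pair was Upk3b and Msln (0.51), followed by Upk3b and Lrrn4 (0.52). The farthest was Upk1b and Podxl (1.91), whose log2 fold changes were 4.95 and 1.17. Msln was at 1.53, 0.273 and 0.525 CPM in PE, where the added 1 shrinks its difference between stages. Its distances, also those to the genes named below, therefore depend on that 1. Without it, the mean log2 ratio of Msln to Upk3b per kilobase was 2.34 higher in EE. The genes closest to Upk1b were Car3, a carbonic anhydrase (0.22), Aldh1a1, a retinaldehyde dehydrogenase (0.33), and Anxa1, a phospholipid-binding protein (0.41). Upk3b was closest to Phactr1 (0.13), to Cldn15, a claudin of tight junctions (0.22), and to Efemp1 (0.24). Msln was closest to Tmem255a (0.23), Gpm6a (0.26) and Dcn, the matrix proteoglycan decorin (0.28). Lrrn4 was closest to the small heat shock genes Hspb8 and Cryab (0.17 each) and to Krt19 (0.17). Podxl was closest to Lats2, a kinase of the Hippo pathway, to Vegfa, an angiogenic growth factor, and to Arhgap6 (0.094, 0.10 and 0.12). These genes were higher in EE with TMM factors, which follows from picking them for a profile like that of Podxl. Scaling to the epicardial factors moves the median log2 fold change of all genes by -1.88. Under it they fell below 0 without a call (edgeR adjusted p = 0.125, 0.0657 and 0.0634). Vegfa lost its call without 4 of the 6 libraries, each left out alone, and Arhgap6 without the third PE library.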

How the data were processed

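Gene expression was measured by mRNA sequencing in 3 EE and 3 PE libraries, amplified with a kit that does not mark strand. The 6 small RNA libraries of the series hold none of the 10 genes and were not used. The authors deposited a table of gene counts as whole numbers that were not normalized. The methods of the study name RSEM on the mm10 transcriptome, and the notes of the submitters on processing name STAR, featureCounts and Trim Galore 0.4.3.1, so it is open how reads shared by related genes were assigned. Columns of the deposited table name the EE libraries as epicardium-derived cells and were matched to the EE samples by number. Where nothing says that pools came from separate litters, p-values measure only the spread between these libraries.

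From these counts, TMM factors and quasi-likelihood tests were computed with edgeR 4.0.16 in R 4.3.3, with the study's filter and limits and with EE over PE. The standard error is the size of the log2 fold change over the square root of F. The common dispersion was 0.164. Exon lengths, positions and overlaps were taken from GENCODE annotation of GRCm38, promoters from RefSeq on GRCm38.p6. Alternatives were leaving out each library, a block for the replicate number, limma 3.58.1 on log2(normalized count + 1), DESeq2 1.42.0, RLE factors, library size alone, scaling to Wt1, Tcf21 and Tbx18, dropping the fold limit, and dropping the filter or replacing it by filterByExpr. The test was checked on simulated counts.

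The 10 genes, the gene lists and the motifs were chosen with earlier results of these data known. Named genes were the 10, up to 4 called genes of highest level from each list, of which part is given, and the 3 genes closest in profile to each of the 10 with a mean of at least 10 CPM. Figures were drawn with Python 3.11.15 and matplotlib 3.10.9.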

Additional observations from a re-analysis of the deposited data

How the results depend on the processing

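Upk1b, Upk3b, Msln and Dmkn were called higher in EE, and Upk3a lower in EE, under every alternative run, those that leave out a library included. These runs reuse the same counts, and Upk3a passed the filter on low counts through PE, so its calls are a description. Over the libraries left out in turn, the log2 fold change was 4.65 to 5.16 for Upk1b, 2.76 to 3.49 for Upk3b, 4.71 to 6.25 for Msln, 4.76 to 5.94 for Dmkn, 2.41 to 2.60 for Lrrn4, 0.93 to 1.34 for Podxl and -8.97 to -6.38 for Upk3a. The number of the 10 genes called higher in EE was 5 to 7 over these, and 1 was higher in PE in each. With the libraries scaled to Wt1, Tcf21 and Tbx18, 4 of the 10 genes were higher in EE and 3 were higher in PE, and over all genes 199 were higher in EE and 14141 higher in PE, against 1078 and 1159 with TMM factors. By its construction this scaling sets the 3 factors themselves near 0. Under it Podxl turned to -0.79, Cd81 to -1.09, Cd63 to -0.55, Ezr to -0.23, Slc9a3r2 to -0.13, Krt18 to -1.12, Tbx18 to -0.22, Myl7 to -0.26, Tnni1 to -1.15, Lats2 to -0.55, Vegfa to -0.68 and Arhgap6 to -0.70. Over the libraries left out in turn, Upk1a ran from -3.95 to 0.36, with 0.36 without the first PE library. DESeq2 called 1717 genes higher in EE and 1894 higher in PE, and the cause was not tested. Over all genes, leaving out a library gave 563 to 1160 higher in EE and 470 to 1100 higher in PE, lowest without the second PE library (595 and 470) and the third (563 and 501), for which 5 libraries enter the fit. Library size alone shifted the median of all genes by -0.12 and gave 927 higher in EE and 1500 higher in PE. With the replicate number as a block, 6 of the 10 genes were higher in EE and 1 higher in PE, with 1140 and 1382 over all genes. Deviations of same-numbered EE and PE libraries correlated at -0.15, 0.09 and -0.04, and no EE library correlated best with its own number. With 3 libraries per stage, these values cannot tell whether same-numbered samples shared more than a number. Muc16 was left out by the filterByExpr filter, and Upk2 by both filters. Counts were under 10 in at least 1 library for Upk1a, Upk2, Upk3a and Muc16, and in PE libraries also for Msln and Dmkn, so the size of the fold change of these genes is imprecise.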

Other observations

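Of 81 genes tested within 100 kb of the 10 genes, 3 were higher in EE and 3 were higher in PE. These 6 make 7.41%, near the 9.38% called among all genes tested. B4galt4, a galactosyltransferase gene near Upk1b, was at 111 ± 13.5 CPM in EE and 50.9 ± 2.80 CPM in PE (SD, n = 3 each, log2 fold change 1.13, edgeR adjusted p = 0.00564). Near Lrrn4, Crls1, the cardiolipin synthase, was at 34.3 ± 9.86 CPM in EE and 8.75 ± 0.703 CPM in PE (log2 fold change 1.97, adjusted p = 0.00222), while Fermt1, an epithelial integrin activator, was at 0.209 ± 0.157 CPM in EE and 8.28 ± 2.96 CPM in PE (-5.28, adjusted p = 0.00122). Ffar3 near Dmkn was at 7.56 ± 2.28 CPM in EE and 1.91 ± 0.390 CPM in PE (1.98, adjusted p = 0.0130). Prodh2 near Upk1a was at 0.0437 ± 0.0434 CPM in EE and 8.15 ± 2.90 CPM in PE (-7.28, adjusted p = 0.000331). Hyou1 near Upk2 was at 19.2 ± 7.40 CPM in EE and 48.8 ± 7.01 CPM in PE (-1.35, adjusted p = 0.0235). These genes were named after their values were seen. No gene within this distance of Upk3a, Upk3b, Msln, Muc16 or Podxl was called.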
